A study of Homo sapiens with 60 samples.

Results

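The comparison described here set 1321N1 cells exposed to cadmium for 12 h against 1321N1 cells left non-treated for the same 12 h, and its members were chosen by label alone as the 3 libraries of each of these groups. It therefore used 6 of the 60 libraries of the series, and every gene with enough counts was tested. 1321N1 is a human astrocytoma line, a cancer cell line of astrocyte origin. The study exposed it to cadmium chloride, sodium metaarsenite (As) or mercury chloride (Hg) for 1.5, 3, 6, 12 or 24 h, with non-treated (nt) cells at each time. The cadmium cells received 2.3 µM cadmium chloride, the arsenic cells 2.55 µM and the mercury cells 20 µM, in the same serum-containing medium as the nt cells, which received no metal. All 60 libraries came from this single line, and the replicates of a condition were technical triplicates, so the p-values measure only the spread between these libraries.

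Cadmium is a toxic metal with no known role in human cells, and it binds tightly to the thiol groups of cysteines. Cells buffer it with metallothioneins, small cysteine-rich proteins whose genes are switched on by the zinc-sensing factor MTF1 through metal response elements (MREs). Proteins damaged by metals or heat engage HSF1, which binds heat shock elements (HSEs) and raises chaperones, while thiol stress frees the factor NRF2 from KEAP1 and raises antioxidant and glutathione genes. A further branch, the integrated stress response, slows general translation and favours the factor ATF4, whose targets import and make amino acids.

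The 6 libraries held 2327396 to 3769847 gene counts each, and 14829 to 16023 genes had at least 1 count. Levels below are CPM, gene counts scaled to a common library size with TMM factors. Libraries were made from transcript 3′ ends, so counts depend little on transcript length, apart from an unevenness in short mRNAs given below. Some genes, among them ALDOA, PSMA2 and ASNS, had 0 counts in all 6 libraries, and whether reads were lost in counting was not tested. CPM are therefore compared mainly between groups, and a low or 0 count may not reflect the level of the transcript. Replicates of a group correlated at r = 0.966 to 0.976 on log2 CPM across genes, which are not independent replicates. The line kept VIM (3734 to 5782 CPM over the 6 libraries), CD44 (342.8 to 499 CPM), SOX9, GJA1 and GLUL of the 14 astrocyte and glioma markers. S100B, AQP4, ALDH1L1 and SOX2 had 0 counts, and GFAP, SLC1A2 and SLC1A3 had 2, 4 and 21 counts in total over all 6 libraries. Of the 7 tested, CD44, SOX9 and GJA1 rose (LFC 0.37, 0.55 and 0.70). VIM, NES, AQP1 and GLUL did not pass (LFC 0.31, -0.75, -0.16 and 0.03). The list summed to 4814 to 6397 CPM in the cadmium and 4206 to 4865 CPM in the nt libraries. All 4 endothelial markers were at 0, and the summed level of the 5 oligodendrocyte markers reached at most 0.351 CPM and that of the 6 leukocyte markers at most 1.36 CPM. The 6 neuronal markers summed to at most 5.2 CPM and the 4 epithelial markers to 46.6 to 71.6 CPM, and no marker of these other cell types was called higher or lower.

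The nt 12 h libraries were not alike in every respect. Metallothionein genes took 0.506%, 0.437% and 0.272% of the counts in nt 12 h replicates 1, 2 and 3, against 0.188% to 0.299% in the 12 other nt libraries and 2.95%, 2.91% and 3.10% in the cadmium 12 h libraries. Replicate 1 also stood above replicate 3 for short mRNAs, by a median of 0.25 on the log2 scale over the 48 protein-coding genes with canonical transcripts of up to 500 bases and at least 50 counts on average. The same median was 0.0086 over the 2853 genes with transcripts above 4000 bases. The comparison itself also ran with length. The median log2 fold change of cadmium 12 h over nt 12 h was -0.17 over the 48 genes and 0.017 over the 2853. It rose step by step over the lengths between. What part this unevenness had in the results was not tested. Values of MT2A, H1-2 and UQCR10, which moved with the nt 12 h libraries, are given below with and without them.

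Cadmium changed a limited set of genes, and the largest changes were rises. Of 12341 genes tested, 640 were higher (5.19%) and 369 lower (2.99%) in the cadmium 12 h libraries at an adjusted p under 0.05 with edgeR's quasi-likelihood test. With a log2 fold change (LFC) beyond 1 as well, 153 genes were higher (1.24%) and 61 lower (0.494%). The rises reached further than the falls, with 23 of the 153 above an LFC of 3 and 1 of the 61 below -3. They also rested on more reads, since 80 of the 153 averaged at least 50 counts over the 6 libraries, against 9 of the 61. All 3 cadmium libraries lay above all 3 nt libraries for 151 of the 153, and all 3 lay below for 61 of the 61. Over all genes, such a full separation occurred upwards in 12.7% and downwards in 12.3%. The 153 and 61 genes were called on these same libraries, so their separation followed largely from the selection and adds no support. The median LFC of all genes was -0.016. In bulk libraries, fewer cells with a transcript and less of it per cell cannot be told apart.

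**Figure D1:**
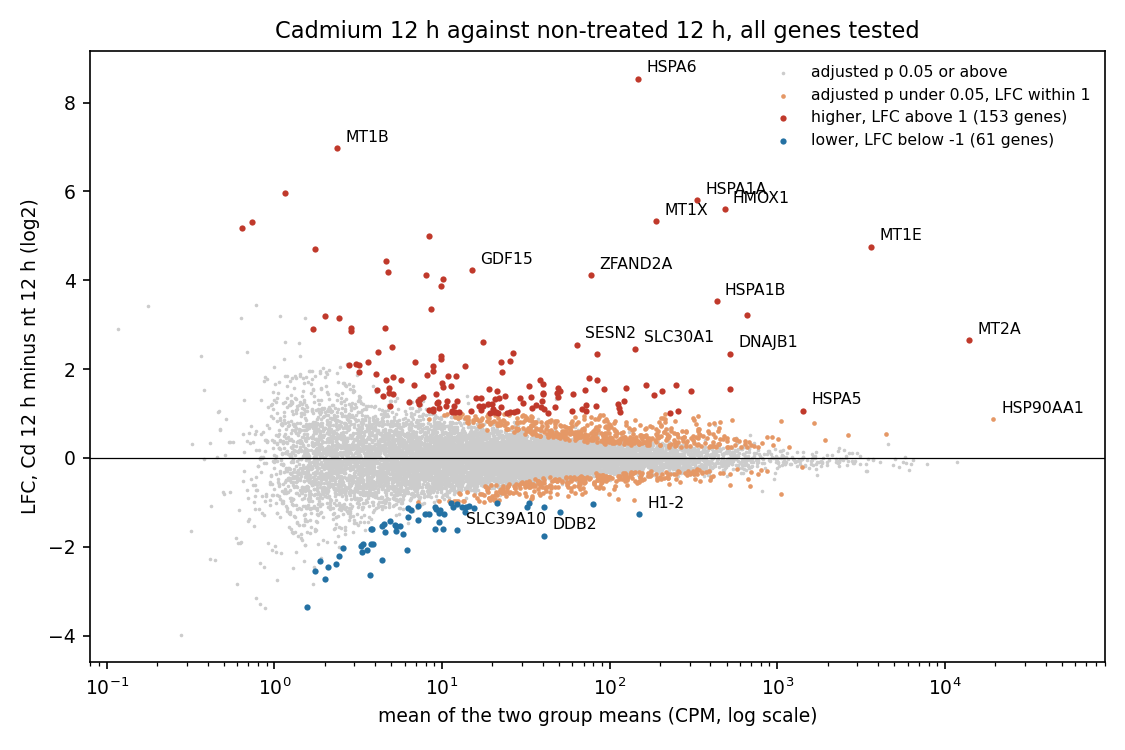
LFC of cadmium 12 h over nt 12 h (vertical axis, log2) against the mean of the group means (horizontal axis, CPM, log scale) for the 12341 genes tested, 1 point per gene. Grey points were not called and orange points were called with LFC within 1. Red points are the 153 genes higher with LFC above 1 and blue points the 61 lower with LFC below -1. HSPA6 stands highest, and the abundant metallothioneins MT1E and MT2A lie far to the right of the other strong rises.

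The counts moved with the libraries used. Without nt 12 h replicate 1, the 640 and 369 became 402 and 166, and without cadmium 12 h replicate 3 they became 420 and 177. The count of genes higher by LFC above 1 stayed between 131 and 170 when any 1 of the 6 libraries was left out, while the count lower by LFC below -1 ranged from 37, without cadmium 12 h replicate 3, to 57. A test against an LFC of 1 itself, with glmTreat in edgeR, kept 40 rises and 1 fall.

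The most abundant of the genes higher by LFC above 1 were the metallothioneins MT2A and MT1E, which chelate zinc, cadmium and copper through their cysteines. Of the 11 family members listed, 3 were well expressed in these cells. MT2A (ENSG00000125148.7, chr16:56608584-56609497, GRCh38, plus strand) was counted at 24963, 22685 and 24324 CPM in the cadmium 12 h libraries and at 4901, 4042 and 2451 CPM in the nt 12 h libraries (LFC 2.66, SE 0.20, adjusted p = 1.32e-17). MT1E (chr16:56625475-56627112) stood at 5848, 7360.3 and 7783 CPM against 263, 286 and 226 CPM (LFC 4.76, SE 0.12, adjusted p = 1.56e-43). MT1X (chr16:56682470-56684196) was scarcer, at 346, 397 and 370.1 CPM against 9.51, 9.26 and 8.64 CPM (LFC 5.34, SE 0.19, adjusted p = 8.10e-35). The lowest cadmium library lay far above the highest nt library for all 3 genes. The order of these genes differed between fold and level, since MT1X had the largest fold of the 3 and the lowest level, and MT2A the smallest fold and the highest level. Among the nt libraries, MT2A followed the uneven metallothionein share described above, and its LFC was 2.88 without nt 12 h replicate 1 and 3.28 with nt 12 h replicate 3 as the only nt 12 h library.

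The other family members were near or at 0. MT1B had 9, 14 and 16 counts in the cadmium libraries and 0 in each nt library, which against a floor of 3 counts over the nt group makes it at least 17-fold higher, and it passed the test (adjusted p = 0.000107). MT1G had 5, 5 and 4 counts against 0, at least 6.10-fold higher by the same floor, and had too few counts to be tested. MT1H had 2 counts in 1 cadmium library, and MT1A, MT1F, MT1M, MT3 and MT4 had none in any of the 6 libraries. All 4 members tested were thus higher, against 5.19% of all genes, with a median LFC of 5.05. Reads can be split between these near-identical genes. Of the 50-base words in the last 400 bases of each transcript, 50.4% of those of MT1X, 20.9% of MT1B, 11.1% of MT2A and 1.42% of MT1E also occurred in a transcript of another gene. A further large rise belonged to ENSG00000289942, a lncRNA of 115 bases (chr4:68376551-68376665) that lies just downstream of the metallothionein pseudogene MT2P1 (chr4:68376323-68376505). It was counted at 875, 1388 and 1296 CPM against 117, 144 and 119 CPM (LFC 3.23, SE 0.14, adjusted p = 1.81e-29). Of its 66 words of 50 bases, 3 also occurred in MT2A, and of its 91 words of 25 bases, 37 did (40.7%). At 25 bases, the shares found in another gene were 54.5% for MT1X, 39.1% for MT2A, 33.3% for MT1B and 22.9% for MT1E. How many of its reads came from the metallothionein genes was not tested.

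Zinc carriers responded singly. SLC30A1 (chr1:211571568-211579161, minus strand), which exports zinc across the plasma membrane, stood at 224, 253 and 246 CPM against 45.3, 46.9 and 39.3 CPM (LFC 2.46, SE 0.13, adjusted p = 8.21e-25), with no overlap between groups. It was the only 1 of 6 tested SLC30 exporters to pass, and the LFCs of the other 5 lay between -0.28 and 0.49. Of 10 tested SLC39 importers, 1 rose and 1 fell, where 5.19% of all genes were higher and 2.99% lower. SLC39A10, a zinc importer of the plasma membrane, fell to 5.44, 4.22 and 8.43 CPM from 20.1, 18.5 and 17.5 CPM (LFC -1.63, SE 0.32, adjusted p = 0.000249). SLC39A14, which imports zinc, manganese, iron and cadmium, stood at 114, 102 and 128 CPM against 75.8, 84.6 and 73.3 CPM (LFC 0.56, SE 0.16, adjusted p = 0.0164), and it lost its call in 3 of 6 fits that left out 1 library. MTF1 itself was counted at 54.4, 50.7 and 47.8 CPM against 44.7, 42 and 41.4 CPM, a difference that did not pass (LFC 0.25, adjusted p = 0.335).

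The promoters of 3 of these genes are printed here because the rises above belong to genes known for MREs. Each line is the 250 bases before the RefSeq start site (GRCh38.p14), 5′ to 3′ on the gene's strand, with capitals marking the words TGCACNC and TGCGCNC on either strand. The first is chr16:56608334-56608583 (plus strand), the second chr16:56682220-56682469 (plus strand) and the third chr1:211579162-211579411 (minus strand).
MT2A: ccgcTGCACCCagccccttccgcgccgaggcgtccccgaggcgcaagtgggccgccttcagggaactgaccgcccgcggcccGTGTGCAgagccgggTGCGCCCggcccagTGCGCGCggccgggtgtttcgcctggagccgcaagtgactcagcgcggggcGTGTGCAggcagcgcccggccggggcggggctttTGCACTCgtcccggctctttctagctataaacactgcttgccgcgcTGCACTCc
MT1X: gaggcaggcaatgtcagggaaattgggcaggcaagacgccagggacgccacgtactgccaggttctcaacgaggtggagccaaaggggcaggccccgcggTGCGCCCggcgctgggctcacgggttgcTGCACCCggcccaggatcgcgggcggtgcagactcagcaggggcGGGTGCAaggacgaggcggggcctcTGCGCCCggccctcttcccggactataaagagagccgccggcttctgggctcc
SLC30A1: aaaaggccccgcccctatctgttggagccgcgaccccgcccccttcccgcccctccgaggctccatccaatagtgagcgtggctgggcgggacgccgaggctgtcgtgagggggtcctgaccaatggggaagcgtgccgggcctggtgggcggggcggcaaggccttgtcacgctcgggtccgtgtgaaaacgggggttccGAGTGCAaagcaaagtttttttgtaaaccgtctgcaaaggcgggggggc
In the 250 bases, MT2A held 7 such words, MT1X 4 and SLC30A1 1, and in the full 300-base window that runs 50 bases past the start they held 8, 4 and 2. MT1B held 3 in its 300 bases, and MT1E was not matched in the promoter table. Of the 12341 genes tested, 9446 had a promoter in that table, and 4.33% of them held 3 or more words and 46.6% at least 1. Of the 114 genes higher by LFC above 1 that had a promoter, 4.39% held 3 or more and 47.4% at least 1. A match describes letters only, and the shares among the genes that rose lay close to those among all genes tested.

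The largest LFC of the genes tested belonged to a heat shock protein gene. HSPA6 (chr1:161524540-161526894), an HSP70 that is nearly silent in unstressed cells, had 642, 887 and 866 counts in the cadmium 12 h libraries and 2, 1 and 5 in the nt 12 h libraries. In CPM this was 291, 288 and 304 against 0.559, 0.309 and 1.31 (LFC 8.54, SE 0.28, adjusted p = 1.90e-36). The ratio of summed counts was 391, with a 95% counting interval of 198 to 908 (exact binomial) that covers counting error only. HSPA1A and HSPA1B, neighbouring genes for the same inducible HSP70, were both higher. HSPA1A (chr6:31815543-31817946) was counted at 679.6, 588 and 698 CPM against 17.6, 8.65 and 8.64 CPM (LFC 5.81, SE 0.19, adjusted p = 1.90e-36). HSPA1B (chr6:31827738-31830254) was counted at 699.6, 792 and 912 CPM against 67.4, 81.8 and 58.9 CPM (LFC 3.53, SE 0.16, adjusted p = 9.61e-29). These genes are near-identical in their coding parts, but of the 50-base words in the last 400 bases, 6.84% for HSPA1A and 0% for HSPA1B occurred in another gene. HSPA1A started from a lower nt level than HSPA1B and both ended at 588 to 912 CPM.

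Of the 13 HSP70 and HSP110 genes tested, 7 rose (53.8%) and 0 fell, with a median LFC of 0.67. Over all genes tested, 5.19% were higher and 2.99% lower, and the list counts below are to be read beside these shares. The lists, here and above, were chosen with earlier results of these data known. Their shares therefore describe the lists and are no test of them. HSPH1, an HSP110 that recharges HSP70 with ATP, stood at 744, 797 and 783 CPM against 265, 246 and 285 CPM (LFC 1.55, SE 0.08, adjusted p = 1.20e-25). The mitochondrial HSPA9 rose by 0.54, and HSPA8, the constitutive and abundant family member, did not pass (LFC 0.10, adjusted p = 0.644). HSF1 mRNA did not pass, at 80.3, 66.9 and 73.4 CPM against 81.4, 73.2 and 82.2 CPM (LFC -0.11, adjusted p = 0.71).

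Promoters of the 3 inducible HSP70 genes just described are shown because HSP70 genes are known for HSEs. Each line again is the 250 bases before the RefSeq start on GRCh38.p14, on the plus strand, with capitals marking GAANNTTC and TTCNNGAA. They lie at chr1:161524290-161524539, chr6:31815293-31815542 and chr6:31827488-31827737.
HSPA6: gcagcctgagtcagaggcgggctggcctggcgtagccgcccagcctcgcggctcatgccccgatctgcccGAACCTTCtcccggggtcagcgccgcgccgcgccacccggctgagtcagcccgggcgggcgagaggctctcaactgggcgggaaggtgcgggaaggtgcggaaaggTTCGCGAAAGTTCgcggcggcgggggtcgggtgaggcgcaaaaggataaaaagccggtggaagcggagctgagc
HSPA1A: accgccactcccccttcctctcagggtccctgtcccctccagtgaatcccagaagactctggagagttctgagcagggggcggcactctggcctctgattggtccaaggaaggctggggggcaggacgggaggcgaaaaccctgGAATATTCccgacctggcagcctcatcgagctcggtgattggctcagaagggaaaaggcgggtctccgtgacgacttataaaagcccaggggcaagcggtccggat
HSPA1B: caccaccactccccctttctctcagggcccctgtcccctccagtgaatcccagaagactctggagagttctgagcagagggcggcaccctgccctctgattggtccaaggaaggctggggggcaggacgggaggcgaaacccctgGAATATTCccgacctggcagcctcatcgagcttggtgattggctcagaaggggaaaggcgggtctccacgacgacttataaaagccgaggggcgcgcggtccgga
HSPA6 held 3 words in its printed bases, and 2 of them overlap, and the paired HSPA1A and HSPA1B held 1 each, at nearly the same distance from the start. CHORDC1 held 6 in its 300 bases. At least 2 words were found in 1.75% of the genes tested and in 6.14% of the 114 genes higher by LFC above 1, and at least 1 word in 13.8% and 21.1%. Of the 41 genes lower by LFC below -1 that had a promoter, 0% held at least 2 words and 19.5% at least 1, close to the share of the rises.

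The partners of HSP70 moved with it in part. Of 19 J-domain proteins and other HSP70 co-chaperones tested, 5 rose and 0 fell. DNAJB1, the main J-domain partner of inducible HSP70, stood at 885, 860.1 and 891 CPM against 197, 142 and 178 CPM (LFC 2.35, SE 0.12, adjusted p = 2.28e-25). BAG3, a nucleotide exchange factor that links HSP70 to autophagy, stood at 236, 234 and 277 CPM against 70.8, 87.4 and 80.7 CPM (LFC 1.65, SE 0.13, adjusted p = 1.44e-16). DNAJB4, DNAJB6 and DNAJA1 also rose, with LFCs of 1.57, 0.76 and 0.53, while the median over all 19 was 0.0099, so the rises lay in a few members.

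HSP90 and its cofactors rose by small amounts in many members. Of 14 tested, 9 rose and 1 fell, with a median LFC of 0.48. HSP90AA1, the inducible cytosolic HSP90 and an abundant transcript, stood at 24805, 25093 and 25697 CPM against 14080.0, 12980.0 and 14396 CPM (LFC 0.87, SE 0.07, adjusted p = 4.08e-17). CHORDC1 had the largest LFC of the group (1.20), and the 1 that fell was FKBP5, an immunophilin also known as a glucocorticoid target (LFC -0.56, adjusted p = 0.0284), whose call was lost when any 1 cadmium library or nt 12 h replicate 1 was left out. The chaperonins, ring-shaped folding machines, rose in 7 of 10 with a median LFC of 0.32. The highest was the mitochondrial cofactor HSPE1 (LFC 0.82, adjusted p = 4.25e-12).

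Small heat shock proteins, which hold unfolded proteins, rose in 3 of 7. HSPB8, a partner of BAG3, had 21, 37 and 78 counts against 1, 4 and 0. CRYAB stood at 607, 698 and 757 CPM against 406, 336 and 401 CPM (LFC 0.85, SE 0.08, adjusted p = 5.38e-13), and HSPB1 at 1754, 2264 and 2303 CPM against 1178, 1238 and 1229 CPM (LFC 0.79, SE 0.10, adjusted p = 1.55e-09). ZFAND2A, also called AIRAP, encodes a proteasome-associated zinc finger protein and is a known target of HSF1. It was counted at 154, 128 and 158 CPM against 8.95, 6.18 and 9.95 CPM (LFC 4.11, SE 0.24, adjusted p = 1.43e-22).

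Genes of protein disposal split by kind. Of 29 proteasome subunits tested, 0 rose and 0 fell by edgeR's adjusted p, with LFCs between -0.20 and 0.33. At an unadjusted p under 0.05 there were 6, and DESeq2 called 1 higher. Without cadmium 12 h replicate 1, 2 were higher, and without nt 12 h replicate 2 or 3, 1 was. Of 16 ubiquitin and autophagy genes, 7 rose and 0 fell. They included MAP1LC3B, which coats autophagosomes, at 109.8, 103 and 133 CPM against 57.3, 50.6 and 46.4 CPM (LFC 1.17, SE 0.14, adjusted p = 8.40e-10), and the cargo receptor SQSTM1 (LFC 0.77, adjusted p = 7.66e-10). Without nt 12 h replicate 2, 4 of the 7 list calls were left.

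**Figure D2:**
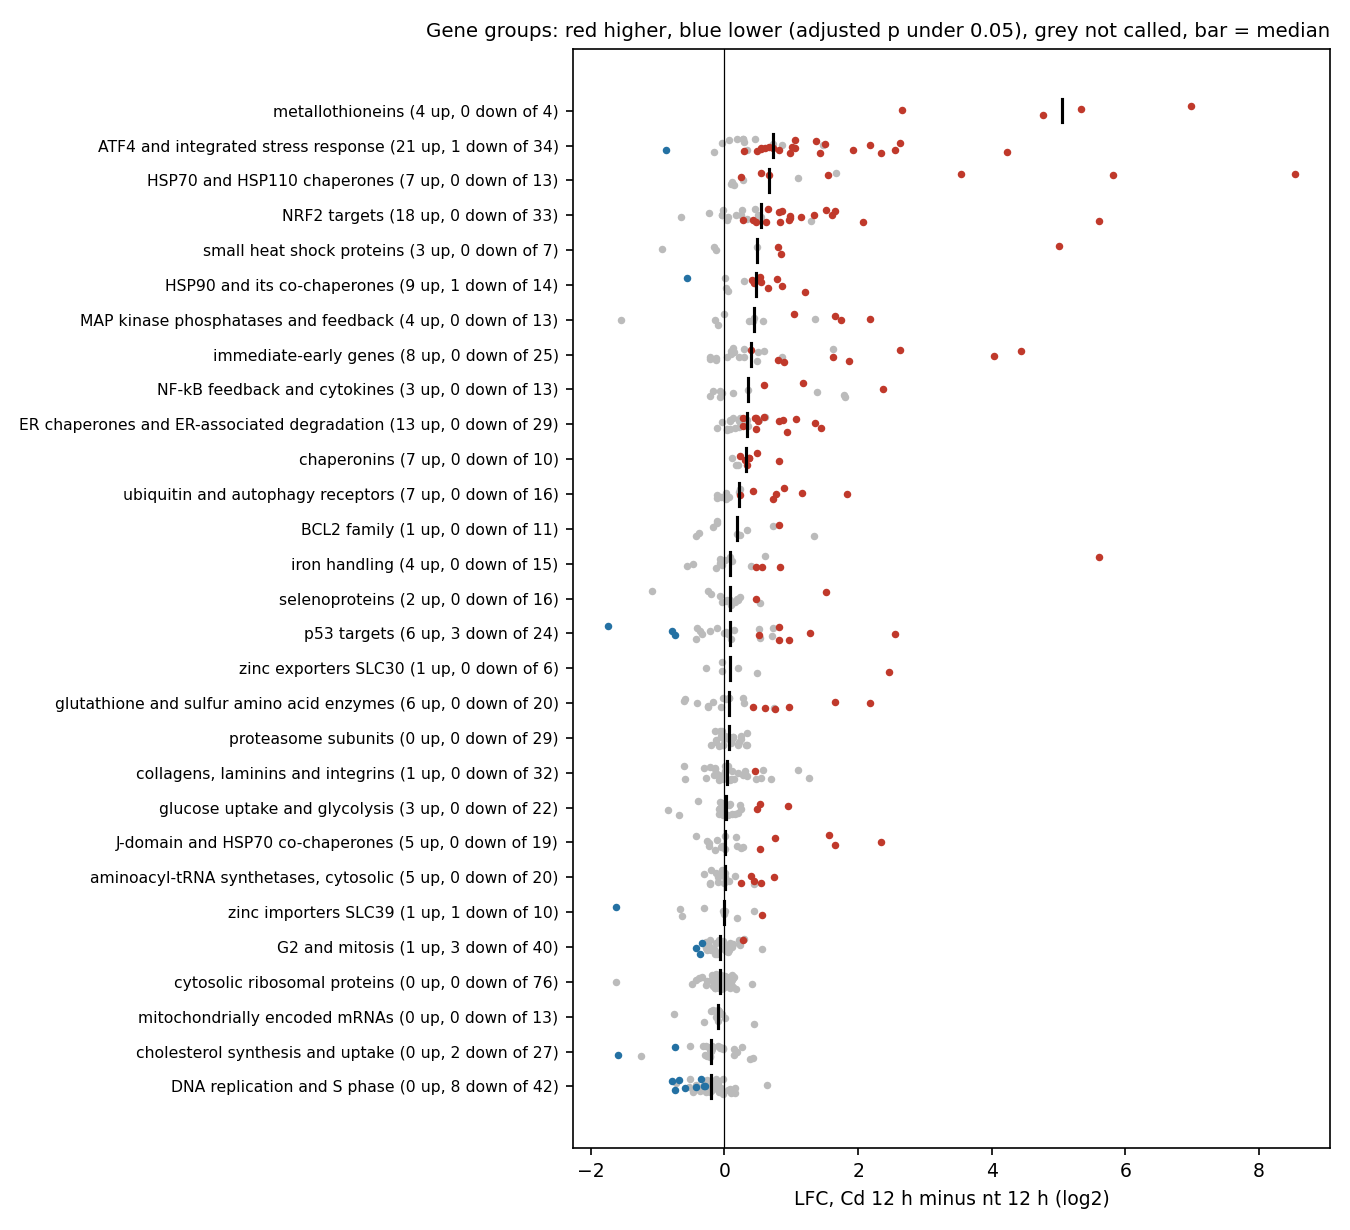
LFC of cadmium 12 h over nt 12 h (horizontal axis, log2) for every tested member of 29 gene groups, 1 point per gene, with red for higher and blue for lower at an adjusted p under 0.05, grey for not called, and a black bar at each group's median. The labels give the members higher and lower of those tested. Metallothioneins stand apart on the right, and proteasome, ribosomal and mitochondrially encoded genes have no call.

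Among NRF2 targets, 18 of 33 rose and 0 fell (54.5% higher, against 5.19% of all genes), with a median LFC of 0.54. In the 6 fits that left out 1 library, 13 to 16 rose, with 13 without nt 12 h replicate 1, and 1 fell in 2 of these fits. HMOX1 (chr22:35380361-35394214), which breaks down haem, dominated the group at 907, 1039.6 and 911 CPM against 18.7, 19.1 and 21 CPM (LFC 5.60, SE 0.17, adjusted p = 2.44e-38). HMOX1 is also a target of other stress factors, and its LFC was far above that of the next member, OSGIN1 (LFC 2.08, adjusted p = 8.96e-07). GCLM, the regulatory subunit of the enzyme that limits glutathione synthesis, stood at 371, 372 and 389 CPM against 113, 109 and 139 CPM (LFC 1.65, SE 0.10, adjusted p = 6.56e-23). Its catalytic partner GCLC was much scarcer, at 9.53, 16.9 and 14 CPM against 6.43, 8.96 and 5.76 CPM (LFC 0.96, SE 0.27, adjusted p = 0.0133), and it lost its call in 4 of 6 fits that left out 1 library. TXNRD1, the cytosolic thioredoxin reductase, was counted at 386, 456 and 514 CPM against 151, 200.1 and 126 CPM (LFC 1.51, SE 0.15, adjusted p = 2.20e-12). SLC7A11, the cystine importer that feeds glutathione synthesis, rose as well (LFC 0.99, adjusted p = 1.65e-10). The pentose phosphate members PGD and TKT did not pass, with LFCs of 0.05 and 0.04. The antioxidant response word TGACNNNGC or TGAGNNNGC, the element NRF2 is known to bind, was found on either strand of the 300 bases in 40.2% of the genes tested, 52.6% of those higher by LFC above 1 and 53.7% of those lower by LFC below -1, and HMOX1 was not matched in the promoter table.

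The main regulators of this pathway did not pass in their own mRNA. NFE2L2, which encodes NRF2, was counted at 72.1, 67.5 and 77.6 CPM against 51.7, 56.5 and 65.5 CPM (LFC 0.32, adjusted p = 0.164), and KEAP1 at 111, 88.3 and 108 CPM against 93.7, 108 and 118 CPM (LFC -0.06, adjusted p = 0.794). The sign of the KEAP1 difference changed with the library left out. BACH1, a repressor of HMOX1, rose slightly (LFC 0.80, adjusted p = 0.044), and it lost its call in 5 of 6 fits that left out 1 library. Beyond the NRF2 list, 6 of 20 glutathione and sulfur amino acid enzymes rose, among them CTH, which makes cysteine from cystathionine (LFC 2.17, adjusted p = 1.47e-05), but 2 of 20 were called without nt 12 h replicate 1. Of 15 iron handling genes, 4 rose, namely HMOX1, SLC39A14 and both ferritin subunits. FTH1 stood at 1413, 1274 and 1384 CPM against 794, 753 and 743 CPM (LFC 0.83, SE 0.08, adjusted p = 1.83e-13) and FTL had an LFC of 0.47, while the transferrin receptor TFRC did not pass (LFC -0.06, adjusted p = 0.711).

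Of 34 genes of the ATF4 pathway and integrated stress response, 21 rose and 1 fell, with a median LFC of 0.72. The strongest with at least 50 counts on average was SESN2, which restrains mTORC1, at 114, 108 and 106 CPM against 21.5, 16.1 and 18.1 CPM (LFC 2.55, SE 0.17, adjusted p = 3.20e-19). PPP1R15A (GADD34), which guides the phosphatase that ends the response, stood at 134, 148 and 141 CPM against 29.1, 32.1 and 22.8 CPM (LFC 2.34, SE 0.16, adjusted p = 1.85e-19). DDIT3 (CHOP) stood at 34.9, 35.7 and 38.3 CPM against 11.2, 9.26 and 8.12 CPM (LFC 1.93, SE 0.21, adjusted p = 4.40e-11). The cadmium and nt ranges were apart for these 3. GDF15, a secreted stress hormone, had 60, 84 and 91 counts against 2, 6 and 8, a ratio of summed counts of 19.2 (95% counting interval 11.6 to 34.1). ATF3 rose too (LFC 2.62, adjusted p = 1.41e-10), as did ATF4 itself by less (LFC 0.61, adjusted p = 0.0009). The word TGATGNAA, a form of the element ATF4 binds, was found on either strand of the 300 bases in 2.66% of the genes tested, 4.39% of those higher by LFC above 1 and 7.34% of all those higher. The member that fell was ATF5, a stress-regulated relative of ATF4 (LFC -0.88, adjusted p = 2.23e-05).

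Amino acid carriers of this pathway rose less. SLC7A5 and SLC3A2 are the chains of the large neutral amino acid exchanger. SLC7A5 had an LFC of 1.05, and SLC3A2 stood at 270.4, 326 and 323 CPM against 181, 150.4 and 128 CPM (adjusted p = 3.14e-12). SLC7A11, whose partner chain is also SLC3A2, stood at 311, 288 and 252 CPM against 135, 152 and 144 CPM, and SLC1A4, a carrier of small neutral amino acids, at 36.3, 41.2 and 39.3 CPM against 24.1, 22.2 and 20.4 CPM (LFC 0.81, adjusted p = 0.0009). The glycine carrier SLC6A9 overlapped between groups and did not pass (LFC 0.33, adjusted p = 0.498). Neither did CHAC1 at 12 h, a glutathione-degrading enzyme that ATF4 is known to induce (LFC 0.27, adjusted p = 0.7). Cadmium had raised CHAC1 at 6 h, with an LFC of 1.87 over nt 6 h (adjusted p = 0.000304). Of 20 cytosolic aminoacyl-tRNA synthetases, 5 rose and 0 fell, led by GARS1 (LFC 0.75, adjusted p = 2.25e-07), with a median LFC of 0.0025 over the list. Leaving out 1 library gave 3 or 4 rises in place of 5, with 3 without cadmium 12 h replicate 3 or nt 12 h replicate 2.

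In the endoplasmic reticulum (ER), 13 of 29 chaperone and degradation genes rose and 0 fell, with a median LFC of 0.33. HSPA5 (BiP), the central ER chaperone, stood at 1915, 1988 and 1891 CPM against 962, 926 and 878 CPM (LFC 1.07, SE 0.08, adjusted p = 1.82e-18). HERPUD1, a scaffold of ER-associated degradation, had the largest LFC of the list (LFC 1.44, SE 0.15, adjusted p = 4.99e-12), followed by DNAJB9 (LFC 1.35, adjusted p = 3.11e-05). XBP1, a transcription factor of the unfolded protein response, was counted at 98.9, 111 and 120.1 CPM against 55.1, 60.8 and 63.9 CPM (LFC 0.88, adjusted p = 6.43e-09), and counts from 3′ ends do not show its splicing. The oxidoreductase PDIA4 and the chaperone CALR did not pass (LFC 0.52 and 0.04).

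Of 25 immediate-early genes, 8 rose and 0 fell at 12 h. MAFF, a small MAF partner of NRF2, stood at 44.9, 50.3 and 54.1 CPM against 19.6, 13.3 and 15.5 CPM (LFC 1.63, SE 0.20, adjusted p = 1.71e-09). IER3 and ZFP36 were scarce, with 36, 48 and 72 counts against 5, 6 and 1 for IER3, and 16, 19 and 38 against 0, 3 and 1 for ZFP36, a protein that speeds the decay of cytokine mRNAs. FOS did not pass (LFC 0.86, adjusted p = 0.683), and JUN rose by little (LFC 0.39, adjusted p = 0.000558). Among 13 feedback genes of MAP kinase signalling, 4 rose, and DUSP1, a phosphatase of p38 and JNK, was counted at 28.6, 41.9 and 55.1 CPM against 6.15, 9.57 and 12 CPM (LFC 2.18, SE 0.30, adjusted p = 7.57e-08). Of 13 NF-kB feedback and cytokine genes, 3 rose, of which TNFAIP3, a ubiquitin-editing inhibitor of NF-kB, had 28.1, 25 and 20.7 CPM against 6.43, 10.2 and 15.7 CPM (LFC 1.17, SE 0.26, adjusted p = 0.00103).

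The p53 target list moved both ways, with 6 of 24 higher and 3 lower. Those higher were SESN2, GADD45A, GADD45B, TNFRSF10B, PMAIP1 and CDKN1A, which other stress factors are also known to induce, with GADD45A at 166, 163 and 188 CPM against 68, 93 and 54 CPM (LFC 1.27, SE 0.17, adjusted p = 9.29e-08). The 3 lower were DDB2, TP53I3 and FDXR. DDB2 (chr11:47214465-47239217), which recognises ultraviolet damage for nucleotide excision repair, fell to 15, 20.1 and 20.4 CPM from 68.2, 65.5 and 55 CPM (LFC -1.75, SE 0.20, adjusted p = 5.68e-10) and was the largest fall among genes with at least 50 counts on average. Its groups did not overlap, and it was the 1 gene still called lower by the test against an LFC of 1. TP53I3 and FDXR had LFCs of -0.78 and -0.74, and without nt 12 h replicate 1 only 1 of the 3 falls was called. MDM2, a ubiquitin ligase on the same list, did not pass (LFC 0.03, adjusted p = 0.947).

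The other falls were in genes of varied function. H1-2, a linker histone, stood at 79.8, 92.5 and 90.2 CPM against 276, 203 and 154 CPM (LFC -1.26, SE 0.19, adjusted p = 8.72e-07), with nt replicate 1 the highest. Its LFC was -1.02 (adjusted p = 0.000245) without nt 12 h replicate 1 and -0.82 (adjusted p = 0.0483) with nt 12 h replicate 3 as the only nt 12 h library. CTDSP1, a small phosphatase of the RNA polymerase tail, fell to 32.7, 32.1 and 26.3 CPM from 77.5, 64.8 and 68.4 CPM (LFC -1.21, SE 0.18, adjusted p = 1.12e-06). FBXO22, a substrate receptor of a ubiquitin ligase, fell to 60.8, 51.6 and 43.5 CPM from 109.9, 102 and 107 CPM (LFC -1.04, SE 0.13, adjusted p = 6.12e-09). ANO8, a tether between ER and plasma membrane, had 1 cadmium library well above the other two, at 39.9, 20.5 and 18.6 CPM against 52.9, 58.1 and 54.5 CPM (LFC -1.10, SE 0.18, adjusted p = 6.61e-06). The remaining members of the 11 largest falls were SNORA61, ATOH8, C1QTNF2, CDK5RAP1, RMND5B and RNF123, with LFCs between -1.12 and -0.97, and SNORA61 and RNF123 lost their calls in 4 of 6 and 2 of 6 fits that left out 1 library. Of 27 cholesterol genes, 0 rose and 2 fell (7.41%, against 2.99% of all genes). They included LSS, which makes lanosterol (LFC -0.74, adjusted p = 0.00711) and lost its call in 2 of 6 such fits. The number that fell was 6 without Cd_12h replicate 1, and 1 without Cd_12h replicate 2 or without nt_12h replicate 1.

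**Figure D3:**
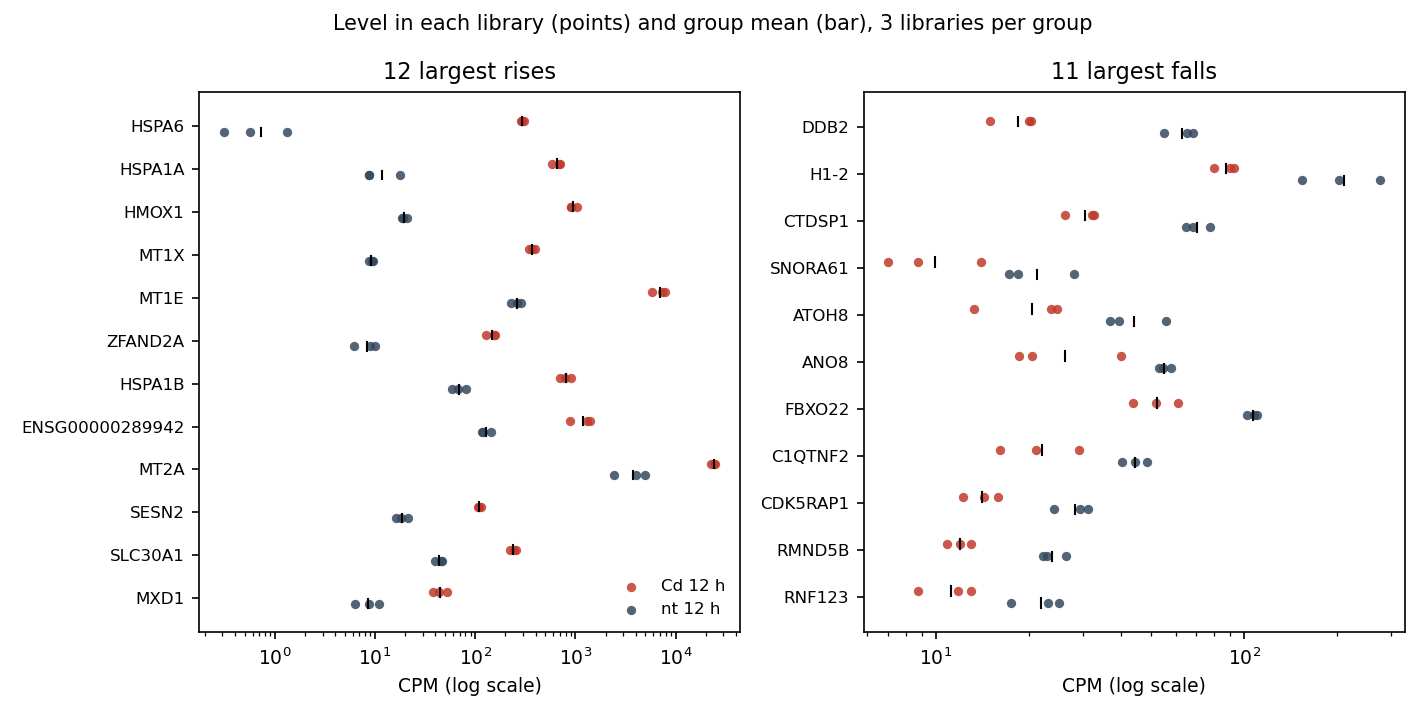
CPM (horizontal axis, log scale) in each of the 3 cadmium 12 h libraries (red) and 3 nt 12 h libraries (dark blue) for the 12 largest rises (left) and 11 largest falls (right) among genes called at an adjusted p under 0.05 with at least 50 counts on average. Points are libraries and black bars group means. The groups are apart for all 23 genes, and the gap is wider on the left, where HSPA6 moved from at most 1.31 CPM to at least 288 CPM.

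Genes of DNA replication fell in part, and other growth and housekeeping lists had few calls. Of 42 DNA replication and S phase genes, 0 rose and 8 fell (19%, against 2.99% of all genes), with a median LFC of -0.20, and MCM5 of the replicative helicase had 65.3, 63.3 and 70.9 CPM against 121, 108 and 92.7 CPM (LFC -0.69, SE 0.14, adjusted p = 0.000507). Without nt 12 h replicate 1, 4 of the 42 were called lower, and without cadmium 12 h replicate 2 or 3, 5 were. Of 40 G2 and mitosis genes, 1 rose (2.5%, against 5.19% of all genes) and 3 fell (7.5%, against 2.99%), with a median LFC of -0.07. Of these, 0 fell without cadmium 12 h replicate 3 or nt 12 h replicate 1, 1 fell and 0 rose without nt 12 h replicate 3, and 2 rose without nt 12 h replicate 2. Of 76 cytosolic ribosomal protein genes and 13 mitochondrially encoded mRNAs, 0 were called in either direction by edgeR or DESeq2, with medians of -0.07 and -0.10, and 8 and 1 had an unadjusted edgeR p under 0.05. Without nt 12 h replicate 3, edgeR called 2 of the 76 and 1 of the 13 lower, and with only the 6 libraries compared in the fit it called 4 of the 76 lower, and 1 of the 13 higher and 1 lower. Glycolysis had 3 rises of 22, with HK2, a hexokinase of the first step, at 44, 47.4 and 42.5 CPM against 22.1, 25.3 and 22 CPM (LFC 0.95, SE 0.19, adjusted p = 0.000357), while GAPDH did not pass (LFC -0.0048, adjusted p = 0.988). Leaving out 1 library gave 1 or 2 rises in place of 3, with 1 without nt 12 h replicate 2. Collagens, laminins and integrins had 1 rise of 32 (3.12%, against 5.19% of all genes), COL6A3 (LFC 0.46, adjusted p = 0.000264). Selenoproteins had 2 of 16 (12.5%). The BCL2 family had 1 of 11 (9.09%), PMAIP1 (NOXA), which promotes cell death, at 142, 160.4 and 175 CPM against 76.1, 96.7 and 100.0 CPM (LFC 0.81, SE 0.12, adjusted p = 3.60e-07). Without nt 12 h replicate 2, the collagen and BCL2 lists had 2 rises each, and without cadmium 12 h replicate 1 the selenoproteins had 1.

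How far the response at 12 h differed from that at its neighbouring times was tested as a difference of effects, each metal group against its own nt group. Between 12 h and 6 h, 40 genes differed (0.324% of those tested), 26 (0.211%) towards a higher effect at 12 h and 14 (0.113%) towards a lower one, and 15 of them (0.122%) by more than 1 on the log2 scale. The largest with at least 50 counts on average were ZFAND2A (difference 2.48, SE 0.39, adjusted p = 8.09e-05) and HSPA1A (difference 2.14, SE 0.31, adjusted p = 1.52e-05). ZFAND2A stood at 27.2 ± 1.63 CPM (SD, n = 3) under cadmium at 6 h and 147 ± 16.6 CPM at 12 h, while its nt means were 8.90 and 8.36 CPM. The aldo-keto reductase AKR1C1 was at 17.9 ± 3.19 CPM under cadmium and 18 ± 2.37 CPM in nt at 6 h, and at 42 ± 0.804 CPM against 16.6 ± 1.39 CPM at 12 h (difference 1.34, SE 0.26, adjusted p = 0.00299). In the other direction, the differences of IER5L, ANO8 and HARS2 were -1.15, -1.15 and -1.06 (adjusted p = 0.0262, 0.0148 and 0.0383). Their calls were lost in 7 of 12, 5 of 12 and 11 of 12 fits that left out 1 of the libraries involved. Cadmium 6 h replicate 1 had 1.35% mitochondrial counts against 5.08% and 5.84% in the other two, and without it 20 genes in place of 15 differed by more than 1.

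Metal handling genes had courses of their own. MT1E was at 3243 ± 179.5 CPM under cadmium at 6 h, 6997 ± 1017 CPM at 12 h and 3798 ± 135 CPM at 24 h, with nt means of 248, 258 and 164 CPM. Its effect was larger at 12 h than at 6 h (difference 1.05, SE 0.15, adjusted p = 4.86e-06), and the difference from 24 h did not pass (0.23, adjusted p = 0.658). MT2A was at 23990.0 ± 1175 CPM at 12 h and 22872 ± 1811 CPM at 24 h under cadmium, but at 3798 ± 1243 and 1753 ± 101 CPM in nt (difference -1.05, SE 0.26, adjusted p = 0.0476). This call was lost in 11 of 12 fits that left out 1 library, and the difference was -0.83 (adjusted p = 0.27) without nt 12 h replicate 1 and -0.42 (adjusted p = 0.848) with nt 12 h replicate 3 as the only nt 12 h library. HMOX1 stood at 958 ± 133 CPM at 6 h, 953 ± 75.5 CPM at 12 h and 359 ± 72.6 CPM at 24 h under cadmium, with nt means of 28.2, 19.6 and 13 CPM. Its effect at 12 h did not pass the test of a difference from 6 h (0.52, adjusted p = 0.454) or from 24 h (0.80, adjusted p = 0.191). SLC30A1 was at 273 ± 30.5, 241 ± 15.4 and 146 ± 17.8 CPM at these times, against nt means of 42.5, 43.8 and 41.3 CPM. Its effect at 12 h did not pass the test of a difference from 6 h (adjusted p = 0.783) or from 24 h (adjusted p = 0.121).

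Between 12 h and 24 h, 47 genes differed (0.381%), 37 (0.3%) towards a higher effect at 12 h and 10 (0.081%) towards a lower one, and 16 (0.13%) by more than 1. SESN2 was at 109 ± 4.41 CPM at 12 h and 54.7 ± 8.40 CPM at 24 h under cadmium, with nt means of 18.6 and 21 CPM (difference 1.19, SE 0.25, adjusted p = 0.00921). MAFF and ST6GALNAC3, a sialyltransferase, also had larger effects at 12 h (differences 1.18 and 1.43, adjusted p = 0.0232 for both), and each lost its call in 6 of 12 fits that left out 1 library. ID2, an inhibitor of basic helix-loop-helix factors, did not pass at 12 h (LFC 0.06, adjusted p = 0.88) and stood at 134 ± 27.8 CPM under cadmium at 24 h against 48.8 ± 8.11 CPM in nt (difference -1.39, SE 0.21, adjusted p = 9.08e-05). H1-2 and UQCR10, a short subunit of respiratory complex III, had differences of -1.22 and -1.17 (adjusted p = 0.00995 and 0.0084), and both moved with nt 12 h replicate 1. UQCR10 was at 77.6, 77.6 and 79.4 CPM in the cadmium 12 h libraries and 182, 147 and 113 CPM in the nt 12 h libraries, and at 79.3 to 88.9 CPM on average in the nt libraries of the other 4 times. Without nt 12 h replicate 1, the differences were -0.99 (adjusted p = 0.121) for H1-2 and -0.99 (adjusted p = 0.0707) for UQCR10. The H1-2 difference was also -0.94 (adjusted p = 0.097) without cadmium 24 h replicate 3, -1.08 (adjusted p = 0.0575) without nt 24 h replicate 3 and -1.23 (adjusted p = 0.111) with only the libraries compared in the fit.

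**Figure D4:**
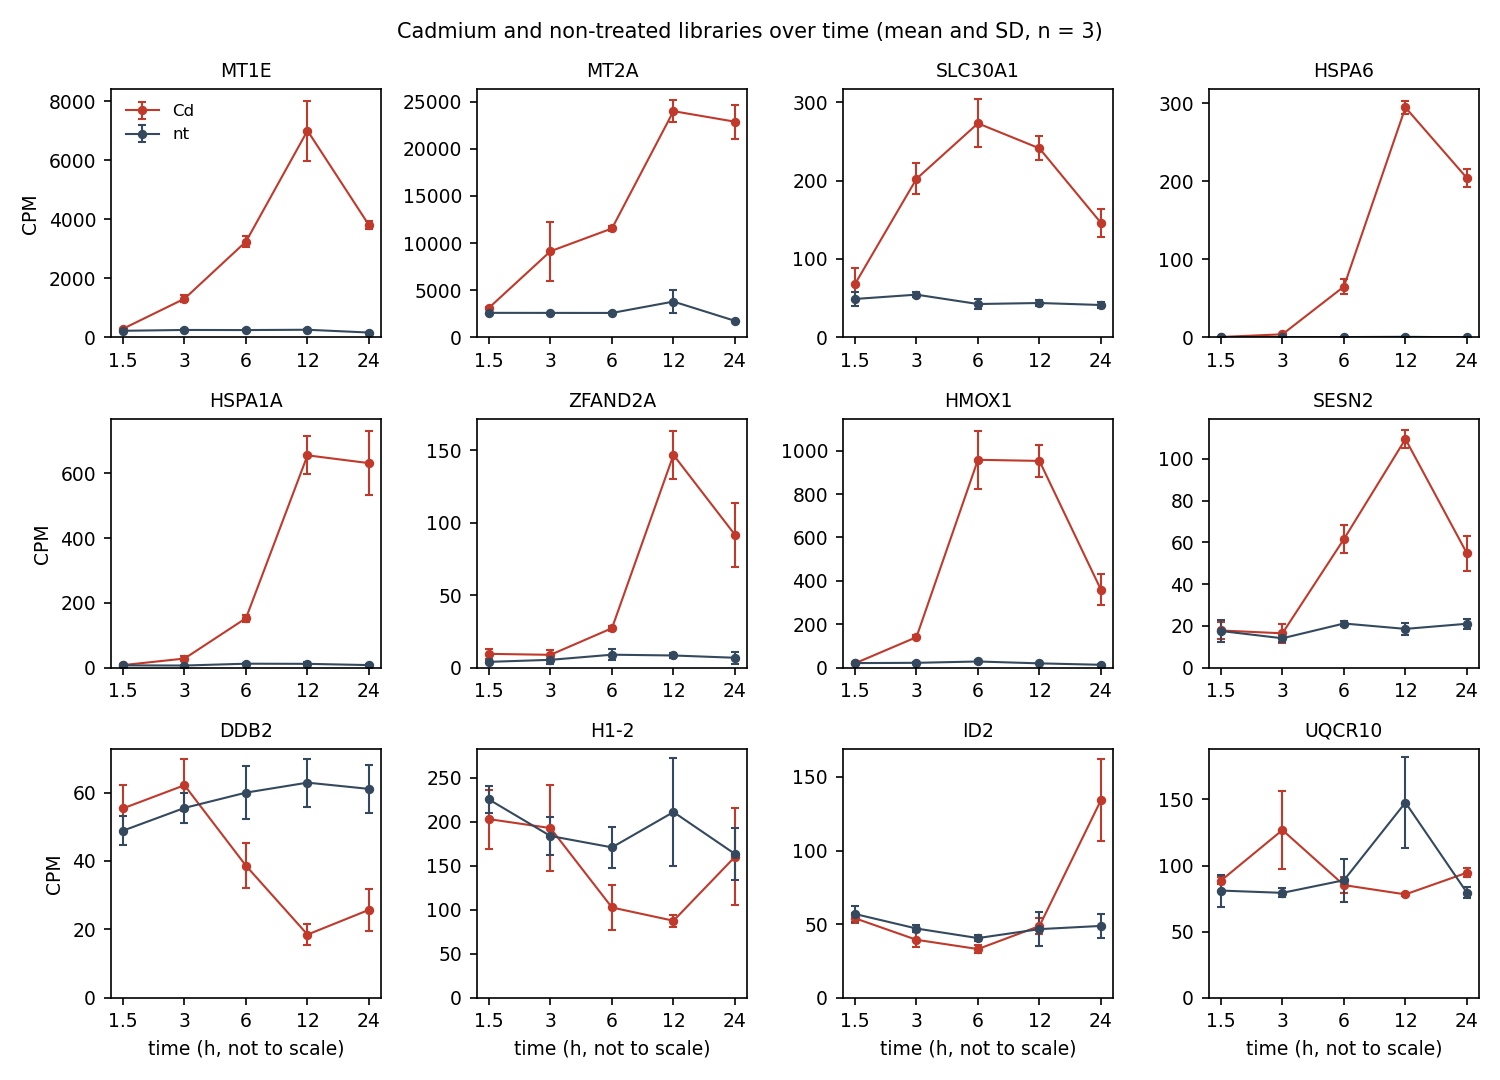
CPM (vertical axes, from 0) of 12 genes in cadmium (red) and nt (dark blue) libraries at the sampled times (horizontal axes, hours, evenly spaced and not to scale), as mean and SD of 3 libraries. MT1E, HSPA6, ZFAND2A and SESN2 have their highest cadmium mean at 12 h, SLC30A1 at 6 h and ID2 at 24 h, and the nt 12 h means of MT2A and UQCR10 stand above those of the other nt times. Over their own nt groups, MT1E, ZFAND2A and SESN2 also had their largest LFC at 12 h. HSPA6, near 0 in nt at 12 h, had an LFC of 8.54 at 12 h and 10.59 at 24 h, and HSPA1A 5.81 and 6.32.

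At the same 12 h, cadmium was compared directly with arsenic and mercury, whose doses differed (2.3, 2.55 and 20 µM). The study describes these doses as equitoxic, so they were matched by cell death and not by concentration. Cadmium and arsenic libraries differed in 712 genes (5.77%), 156 of them (1.26%) by more than 1, with 118 (0.956%) higher and 38 (0.308%) lower under cadmium. Cadmium and mercury differed in 406 (3.29%), 72 of them (0.583%) by more than 1, with 35 (0.284%) higher and 37 (0.3%) lower under cadmium. Metallothioneins were higher under cadmium than under either other metal. MT1X stood at 371 ± 25.5 CPM under cadmium (SD, n = 3), 33.8 ± 5.72 CPM under arsenic and 24.9 ± 1.75 CPM under mercury (differences 3.46 and 3.89, adjusted p = 8.41e-28 and 4.11e-29). MT1E stood at 6997 ± 1017, 781 ± 17 and 552 ± 21.9 CPM in the same order (cadmium minus mercury 3.66, SE 0.11, adjusted p = 5.37e-38). MT2A stood at 23990.0 ± 1175, 5555 ± 432 and 4859.6 ± 358 CPM (cadmium minus mercury 2.30, SE 0.19, adjusted p = 1.82e-14).

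Inducible HSP70 genes were far higher under cadmium than under arsenic, and closer to their level under mercury. HSPA6 was at 294 ± 8.51 CPM under cadmium, 1.46 ± 0.632 CPM under arsenic and 369.6 ± 50.1 CPM under mercury. The difference from arsenic was 7.61 (adjusted p = 2.16e-35), and that from mercury was -0.33 (SE 0.14, adjusted p = 0.247). HSPA1A was at 655 ± 58.9, 45.3 ± 9.12 and 587 ± 83.6 CPM, with differences of 3.86 from arsenic (adjusted p = 3.40e-30) and 0.16 from mercury (SE 0.14, adjusted p = 0.663). HSPA1B was lower under cadmium than under mercury by a small amount (-0.49, SE 0.14, adjusted p = 0.026). DDB2 was low under cadmium and mercury, at 18.5 ± 3.05 and 16.7 ± 3.89 CPM, and stood at 55.8 ± 8.46 CPM under arsenic and 62.9 ± 6.98 CPM in nt (cadmium minus arsenic -1.57, SE 0.20, adjusted p = 2.53e-08).

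Some genes were lower under cadmium than under arsenic, mercury or both. CHAC1 was at 10.0 ± 2.86 CPM under cadmium, 31.1 ± 7.62 CPM under arsenic and 53 ± 9.88 CPM under mercury (differences -1.64 and -2.41, adjusted p = 3.47e-05 and 3.66e-09). SLC6A9 was at 11.8 ± 4.45, 28.8 ± 3.44 and 23.5 ± 0.66 CPM (cadmium minus arsenic -1.25, SE 0.23, adjusted p = 9.72e-05). AKR1C1 was at 42 ± 0.804 CPM under cadmium, 45.8 ± 7.30 CPM under arsenic and 127 ± 9.46 CPM under mercury (cadmium minus mercury -1.59, SE 0.14, adjusted p = 2.24e-13), and the difference from arsenic did not pass (-0.13, adjusted p = 0.718). TSC22D3, a glucocorticoid-induced leucine zipper gene, was at 10.1 ± 3.53 CPM under cadmium, 16 ± 4.36 CPM under arsenic and 38.3 ± 6.53 CPM under mercury (cadmium minus mercury -1.96, SE 0.30, adjusted p = 3.51e-06, cadmium minus arsenic -0.69, adjusted p = 0.205).

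**Figure D5:**
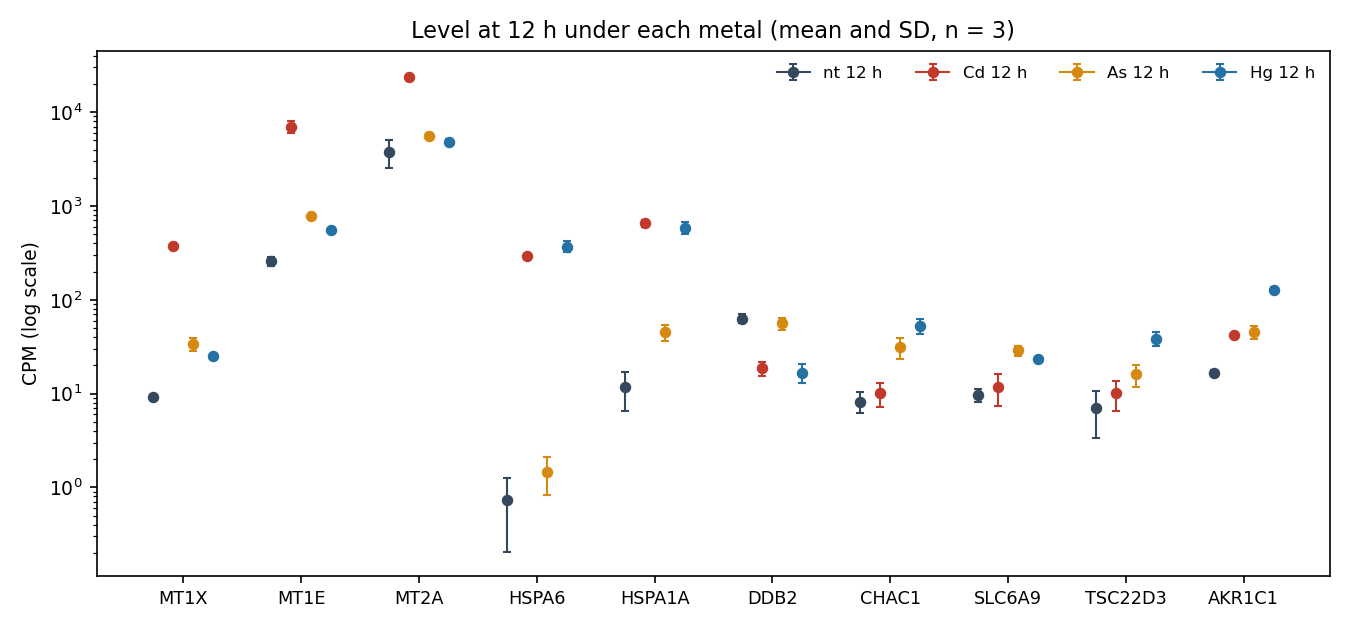
CPM at 12 h (vertical axis, log scale) of 10 genes in nt, cadmium, arsenic and mercury libraries, as mean and SD of 3 libraries each. The 3 metallothioneins are highest under cadmium, HSPA6 and HSPA1A are high under cadmium and mercury, and CHAC1, SLC6A9 and TSC22D3 stay near nt under cadmium. Doses differed between metals in concentration, and the study describes them as equitoxic.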

How the data were processed

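RNA from 1321N1 cells was made into 3′-end mRNA libraries (QuantSeq FWD) and sequenced as single reads. The authors aligned reads with STAR 2.7.9a to GRCh38 and counted them by strand over GENCODE basic genes, and deposited the raw counts per gene analysed here. The table had 62703 genes and 92 spike-in rows with 0 counts, and 12341 genes passed edgeR's filter (minimum count 10, minimum total 15). A quasi-likelihood model (edgeR 4.0.16, R 4.3.3, TMM scaling) was fitted to all 60 libraries with 20 groups, so that they shared an estimate of spread, and contrasts were adjusted by Benjamini-Hochberg over all genes tested. CPM are TMM-scaled, and ± gives the SD. No 2 replicates agreed within sampling noise (chi-square per degree of freedom 2.26 to 4.55). The 12 largest rises and falls among called genes averaging at least 50 counts were named, with up to 5 called members per list and 3 genes per direction in the other contrasts. Others were named after their values were seen, and some genes are not reported here. Members and the 29 lists were chosen with earlier results of these data known. Promoters came from RefSeq (GRCh38.p14), and each motif count is the highest over a gene's 300-base windows. Alternatives were RLE scaling, other filters, DESeq2 1.42.0, a replicate block, glmTreat, fewer libraries and leaving out each library.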

Additional observations from a re-analysis of the deposited data

Results flagged for a closer look

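The cadmium effect at 12 h differed from that at 6 h in 15 genes by more than 1 on the log2 scale, and from that at 24 h in 16, by a test of the difference itself. Against 6 h, the named differences were 2.48 for ZFAND2A, 2.14 for HSPA1A, 1.34 for AKR1C1, 1.05 for MT1E, -1.15 for IER5L, -1.15 for ANO8 and -1.06 for HARS2. The first 4 were called in each of the 12 fits that left out 1 library. Against 24 h, they were 1.43 for ST6GALNAC3, 1.19 for SESN2, 1.18 for MAFF, -1.39 for ID2, -1.05 for MT2A, -1.22 for H1-2 and -1.17 for UQCR10. SESN2 and ID2 were called in each of those 12 fits, the call for MT2A was lost in 11 of them, and the call for UQCR10 was lost without nt 12 h replicate 1.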

How the results depend on the processing

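Rises held better than falls and differences between times. The glmTreat test beyond LFC 1 kept 40 of the 153 rises and 1 of the 61 falls, 0 genes against 6 h and 0 against 24 h (15 and 16 by the quasi-likelihood test, 10 and 17 by DESeq2, and 106 and 94 at an unadjusted glmTreat p under 0.05), 17 of 156 against arsenic and 9 of 72 against mercury. With only the libraries compared in the fit, 5 genes differed from 24 h. With nt 12 h replicate 3 as the only nt 12 h library, an alternative chosen after seeing the data that has fewer samples by construction, 22 genes fell by LFC below -1, 255 were higher and 68 lower at any size, and 6 and 3 differed from 6 h and 24 h. Leaving out each library in turn gave 131 to 170 rises and 37 to 57 falls beyond LFC 1, 402 to 577 higher and 166 to 327 lower at any size, 7 to 20 genes against 6 h, 6 to 20 against 24 h, 111 to 190 against arsenic and 51 to 76 against mercury. The counts at any size that moved most were 224 lower without cadmium 12 h replicate 2, 420 and 177 without cadmium 12 h replicate 3, and 402 and 166 without nt 12 h replicate 1. Against 6 h, 7 to 9 genes differed without cadmium 12 h replicate 2 or 3, nt 12 h replicate 2, or nt 6 h replicate 2 or 3. Against 24 h, 7 differed without cadmium 12 h replicate 2 or cadmium 24 h replicate 3, and 6 without nt 12 h replicate 1. The cause was not tested beyond the smaller number of samples. KEAP1, not called at -0.064, ranged from -0.15 to 0.035 over the fits that left out 1 library, and was at 0.035 without cadmium 12 h replicate 2 and 0.016 without nt 12 h replicate 3. Of the 214 genes called beyond LFC 1, RLE scaling shared 214, DESeq2 207, the stricter filter 173 and no filter 189.

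Same-numbered cadmium and nt 12 h libraries showed no visible shared deviation, with correlations of 0.0448, -0.0224 and -0.0352. These values cannot tell whether same-numbered samples were handled together. With the replicate block, 155 genes were higher and 62 lower beyond LFC 1, 646 and 373 at any size, and 14, 16, 152 and 72 genes differed from 6 h, 24 h, arsenic and mercury, and it changed the call of 0 of the 144 named values.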

Other observations

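Among the genes that rose outside the lists, or in small numbers within them, were several for secreted factors, named here after their values were seen. INHBA, a subunit of activin A, had 22, 55 and 51 counts in the cadmium 12 h libraries and 1, 3 and 5 in the nt 12 h libraries, a ratio of summed counts of 18.6 (95% counting interval 9.49 to 41.6). The chemokine CCL26 had 31, 45 and 52 counts against 7, 2 and 7. VEGFA, which drives vessel growth, stood at 17.7, 29.2 and 26.7 CPM against 5.59, 15.7 and 8.12 CPM (LFC 1.35, SE 0.27, adjusted p = 0.000326), and HBEGF, a ligand of the EGF receptor, at 96.6, 93.2 and 92 CPM against 38.9, 47.6 and 44.5 CPM (LFC 1.11, SE 0.14, adjusted p = 1.42e-08). The groups did not overlap for these genes.

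Of the ubiquitin ligase receptors of the F-box family, FBXO32, known from muscle atrophy, had 40, 62 and 49 counts against 3, 5 and 5, a ratio of 15.2 (95% counting interval 8.62 to 29.2), and FBXO30 had an LFC of 1.07 (adjusted p = 0.00217), while FBXO22 fell. RGS16 and RGS2, which speed the shutoff of G protein signalling, had LFCs of 1.84 and 1.07 (adjusted p = 1.53e-05 and 0.00388).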
